A study of Mus musculus with 18 samples.

Results

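Pancreas from 5 mice labelled KPC ASC KO was compared with pancreas from 6 wild-type (WT) mice. The members were chosen by genotype label alone, and they are 11 of the 18 libraries in the series. All the mice were 20 weeks old, were of mixed 129Sv and C57BL/6 descent and were kept specific-pathogen-free, and the tissue was snap-frozen. The other 7 libraries, from mice labelled KPC, entered the same statistical model and are cited only beside values of the KPC ASC KO mice. The name KPC is generally given to mice bred to develop pancreatic cancer, but the labels do not spell out the alleles or the Cre line. ASC KO denotes loss of ASC, the product of Pycard. The KPC ASC KO mice therefore differ from WT in both the KPC genotype and the loss of ASC, and the comparison cannot tell these apart. Neither the removed part of Pycard, nor the sex, the litter, the strain share of each mouse or the histology of the pancreas is given in the labels.

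ASC is an adaptor protein that joins sensors of the inflammasome to caspase 1, which matures interleukin 1 beta and interleukin 18 and cuts gasdermin D. Most RNA of a normal pancreas comes from acinar cells, which make digestive enzymes in an extensive endoplasmic reticulum. When acinar tissue is injured or transformed, acinar transcripts fall while transcripts of duct cells, fibroblasts, matrix and leukocytes take a larger share. Members of the Reg family are secreted lectin-like proteins that acinar and islet cells make in large amounts during pancreatic injury.

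The 6 WT libraries held 294077 to 416879 molecule counts and the 5 KPC ASC KO libraries 374432 to 647947, and the totals overlapped. KPC ASC KO libraries were the deeper ones on average, at 496000 ± 107000 counts (SD, n = 5) against 355220 ± 55500 (SD, n = 6; p = 0.0195 by an exact permutation test, two-sided, and 0.0216 after adjustment over 3 tests). The filter on low counts was run over all 18 libraries, and 6920 of the 25651 listed genes passed. The 7 KPC libraries in it were deeper, at a mean of 881170 counts. In the 11 libraries alone 3234 genes passed, so many tested genes had few counts in WT and KPC ASC KO. Single low genes are measured roughly. Levels are given below as CPM, the usual depth-normalised count, after TMM scaling, which offsets the large share taken by a few genes. The labelled tissue was checked against its defining transcripts: 34 digestive enzyme genes made up 34.64% to 62.93% of the counts in all 11 libraries. Of the markers of neighbouring tissue, 0 of 8 skeletal muscle genes passed the filter. Alb, the liver's albumin gene, had 7 raw counts over the 6 WT libraries and 11 over the 5 KPC ASC KO libraries. Summed, the listed liver genes ran from 195 to 302.5 CPM across WT mice, and across KPC ASC KO mice from 102 to 190.9. Red blood cell and spleen genes reached 7863 CPM among WT mice and 6346 among KPC ASC KO mice. These values do not exclude RNA of neighbouring tissue. Both Xist and Y-linked counts were above 0 in all 11 libraries. Xist counts were 39, 5, 56, 70 and 8 in KPC ASC KO mice 318, 335, 377, 384 and 388, and 7 to 33 in WT. With a term in the fit for Y-linked counts above those of Xist, 0 genes had an adjusted p under 0.05 and 646 an unadjusted one (edgeR).

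Pycard, the targeted gene (chr7:127989708-127993867, GRCm38), was read first as a check of the labels. In the WT mice its level ran from 45.4 to 65.5 CPM, with a median of 60.4. It was at 34.2, 27.3, 11.1, 5.56 and 21.1 CPM in KPC ASC KO mice 318, 335, 377, 384 and 388, the order used for 5 values throughout. All 5 values lay below all 6 WT values. The raw counts behind them were only 12, 7, 6, 3 and 5, so the order among the 5 mice is not resolved. Permuting the 11 CPM values exactly, two-sided, gave p = 0.00216, the smallest that 5 against 6 mice allow (0.00649 after adjustment over 3 tests). In the fit across all genes the log2 difference was -1.67 (SE 0.38) and missed the threshold (edgeR quasi-likelihood test, adjusted p = 0.14). Against the KPC mice it was -1.94 and passed (adjusted p = 0.0043). Pycard counts were thus lower and not at 0, and where the remaining counts align within the gene was not tested.

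Across all genes, KPC ASC KO pancreas was not separated from WT at the threshold used. Of 6920 genes tested with edgeR's quasi-likelihood test, 0 (0%) had a Benjamini-Hochberg adjusted p under 0.05, and the smallest adjusted p was 0.0642. At an unadjusted p under 0.05 there were 691 genes (9.99%), 390 higher (5.64%) and 301 lower (4.35%). Which direction held more of them changed with the method: 56.4% were higher here, 42% with limma-voom, 48.2% without mice 377 and 384 and 89.3% with library totals in place of TMM. DESeq2 called 8 genes and limma-voom called 0. The same fit called 2070 genes (29.9%) in KPC against WT, 14.8% of all higher and 15.1% lower. It called 652 (9.42%) in KPC ASC KO against KPC, 6.73% higher and 2.69% lower. KPC ASC KO against WT and KPC against WT share the 6 WT mice, so their values stand side by side and are not independent.

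A missed threshold does not show that a gene is unchanged, so each gene's 95% interval was also read. A gene was named near wild type when its whole interval lay within 2-fold of WT, that is between -1 and 1 on the log2 scale. This held for 2840 genes (41%), and in the fit of the 11 mice alone for 2297 of 3234 genes. The median standard error was 0.374, so the other 4080 genes were either shifted or measured too loosely to be placed. Of the 2070 genes that changed in KPC, 658 (31.8%) were near wild type in KPC ASC KO, and 259 of those also differed between KPC ASC KO and KPC. Another 1080 (52.2%) were neither near wild type nor different from KPC.

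The 5 KPC ASC KO mice were not alike. The acinar enzyme genes took 51.7% to 62.9% of the counts in WT, with a median of 54.8%. They took 60.8%, 57.5%, 40.7%, 34.6% and 57.0% in mice 318, 335, 377, 384 and 388. Mice 318, 335 and 388 lay within the WT range, and mice 377 and 384 lay below every WT mouse. In the KPC mice the share ran from 4.66% to 42.7%, so mouse 377 and mouse 384 fell inside the KPC range. The mean was 50.1% ± 11.7 (SD, n = 5) in KPC ASC KO and 55.9% ± 4.27 (SD, n = 6) in WT. In bulk tissue, fewer cells of a type and less RNA per cell cannot be told apart, here and in the lists that follow.

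**Figure D1:**
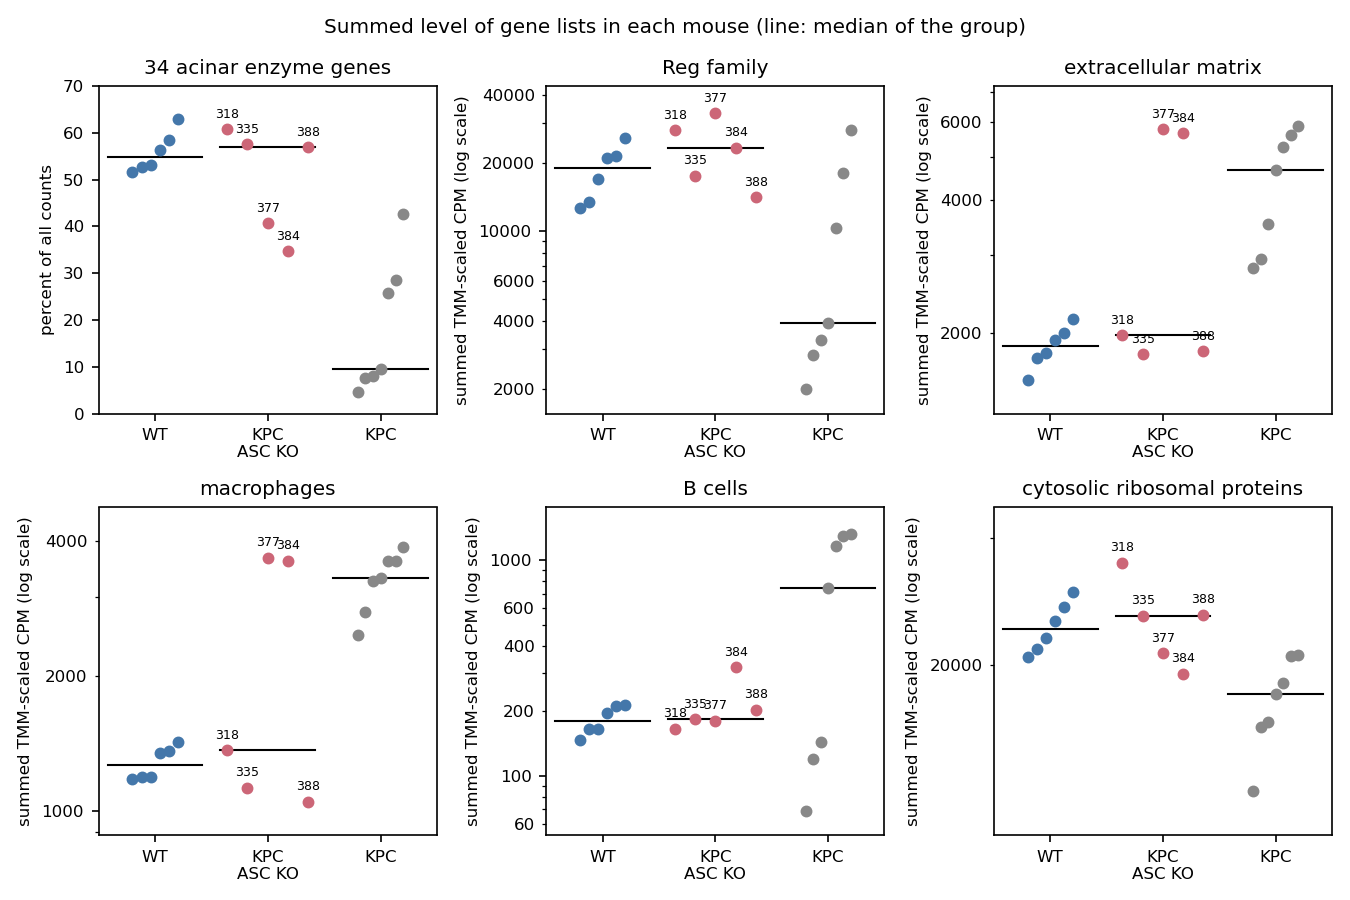
Summed level of 6 gene lists in each mouse, by group; the first panel is in percent of all counts, the others are summed TMM-scaled CPM on a log axis. Points are mice, lines are group medians, and KPC ASC KO mice carry their numbers: mice 377 and 384 stand apart from mice 318, 335 and 388 for acinar enzymes, matrix and macrophages. For the summed Reg family mouse 384 lies between mice 335 and 318, and for B cells mouse 377 lies between mice 318 and 335.

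Rank correlations of the libraries gave the same division, as a description over 5113 genes within one table. Mice 377 and 384 correlated with each other at 0.845, with the WT mice at a median of 0.697 and 0.667, and with the KPC mice at a median of 0.777 and 0.756. Mice 318, 335 and 388 correlated with WT at medians of 0.766, 0.75 and 0.744 and with KPC at 0.621, 0.552 and 0.553. The WT mice correlated with one another at medians of 0.72 to 0.74 and with KPC at 0.534 to 0.557. The libraries differed in depth, and the part of depth in these correlations was not tested. Genes more than 2-fold above all 6 WT mice numbered 6, 22, 77, 81 and 18 in mice 318, 335, 377, 384 and 388. Mice 377 and 384 shared 42 of these, which is 54.5% of the genes of mouse 377 and 51.9% of those of mouse 384. Of the genes more than 2-fold below all WT mice, 68 in mouse 377 and 99 in mouse 384, they shared 33 (48.5% and 33.3%). Mice 335 and 388, by contrast, shared 4 high genes (18.2% and 22.2%) and 3 low ones (6.82% of each). Against 5 WT mice at a time, 3.31% and 4.2% of the 5113 genes lay more than 2-fold outside in mice 377 and 384. In mice 318, 335 and 388 it was 0.821%, 1.69% and 1.58%. Each WT mouse against the other 5 gave 1.39% to 3.25%, so by this count mouse 377 was close to WT mouse 69, the highest of the WT mice.

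Single genes gave no clear difference in spread between KPC ASC KO and WT. The SD of log2 CPM was larger in KPC ASC KO for 38.6% of tested genes. This SD includes counting noise and the KPC ASC KO libraries were deeper, so it cannot show which group varied more. The biological coefficient of variation, which takes counting noise into account, was 0.287 in KPC ASC KO, 0.269 in WT and 0.356 in KPC. It was fitted in each group alone. The division among the 5 mice was seen in the gene lists. Of 39 lists with at least 5 tested genes, the list median lay within the WT range for 23 lists in mouse 318, 33 in mouse 335 and 31 in mouse 388, but for 11 in mouse 377 and 9 in mouse 384. In mouse 377, 20 list medians were above and 8 below every WT mouse, and in mouse 384 the numbers were 23 and 7.

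**Figure D2:**
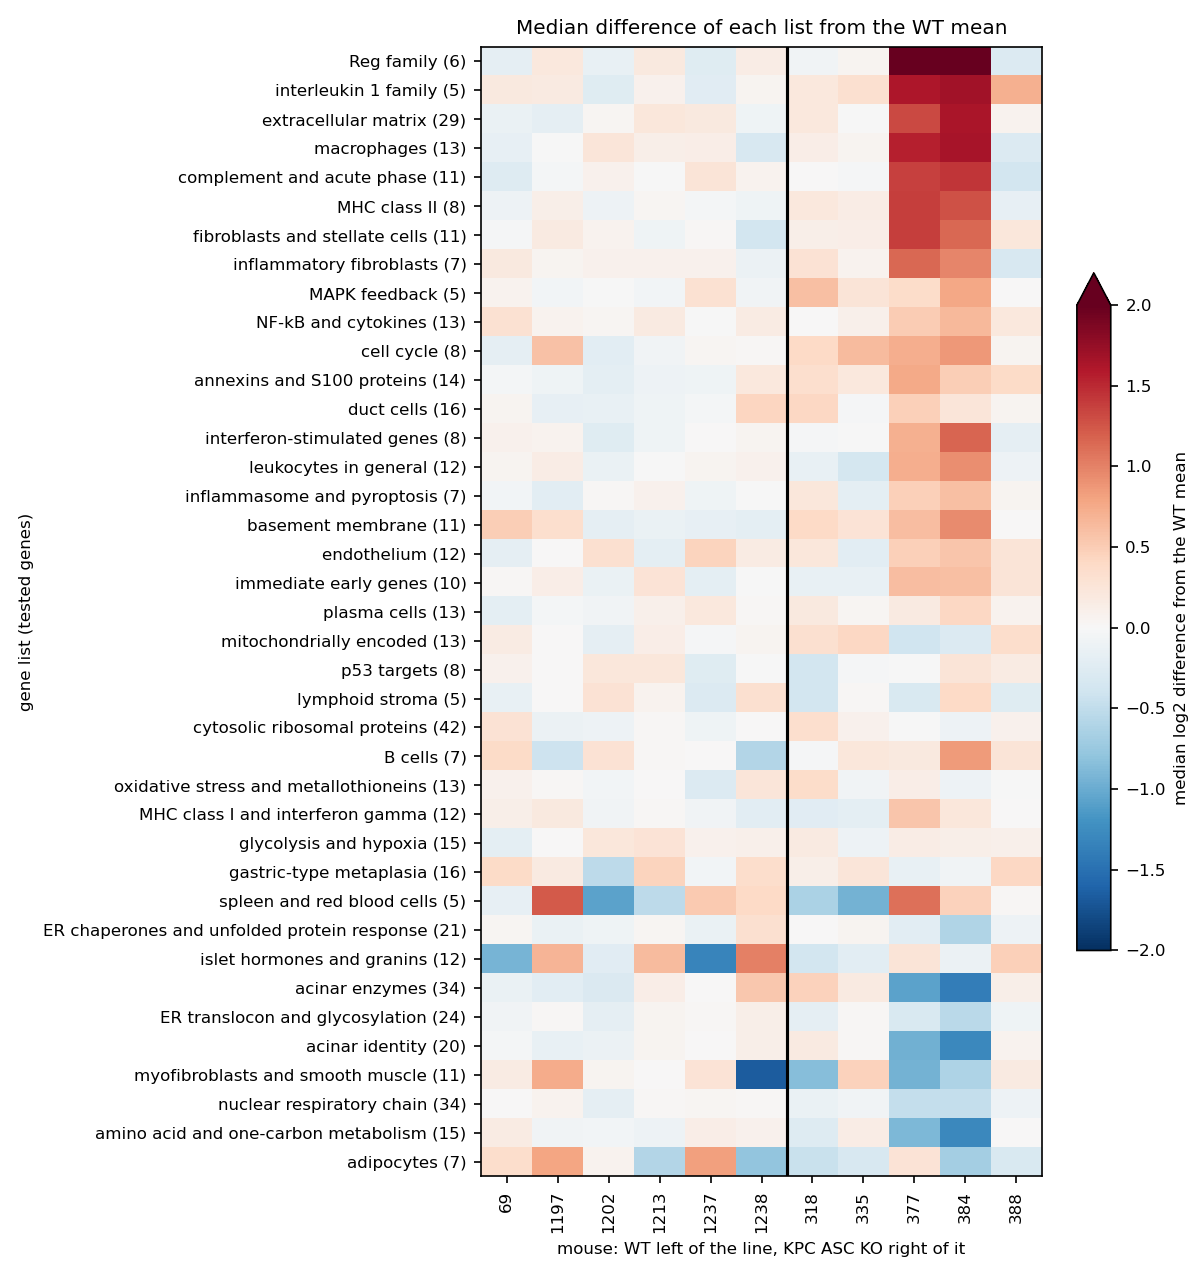
Median log2 difference from the WT mean of the tested genes in each of 39 lists, one column per mouse; the black line separates 6 WT from 5 KPC ASC KO mice, and the number of tested genes follows each list's name. Columns 377 and 384 hold the strong colours, with the Reg family at 2.62 and 2.38 and acinar enzymes at -1.07 and -1.38, while columns 318, 335 and 388 resemble the WT columns in most lists.

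The digestive enzymes themselves showed this division gene by gene. All 34 acinar enzyme genes were tested, and 0 were near wild type, where 41% of all tested genes were. The median log2 difference from WT was -0.20 beside 0.00 over all tested genes (KPC against WT, -2.61). In mouse 377 and in mouse 384, 34 of the 34 genes were below every WT mouse, where 14% and 15.5% of all tested genes were. In mice 318, 335 and 388 the numbers were 0, 0 and 1, and 12 of the genes in mouse 318 were above every WT mouse. The intervals were wide (median standard error 0.63), and apart from Ctrc the enzymes could be placed neither near wild type nor away from it. Against KPC, 31 of the 34 were higher in KPC ASC KO at an adjusted p under 0.05, where 6.73% of all tested genes were.

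Cela1, which encodes a pancreatic elastase, illustrates the enzymes. Its CPM in WT ran from 31334 to 63394 with a median of 39605. It was 58647, 49079, 12797, 9797 and 47887 CPM in the KPC ASC KO mice. Mice 318, 335 and 388 sat inside the WT range, and the log2 difference over the group was -0.28 (95% interval -1.64 to 1.08). Bhlha15, a transcription factor of mature secretory cells, was at 308, 262, 134, 81.6 and 186 CPM in the same order of mice and at 257 to 452 in WT. Mouse 388 therefore joined mice 377 and 384 below the WT range for Bhlha15 (log2 difference -0.88, SE 0.53, adjusted p = 0.598). Among 20 tested genes of acinar identity, 1 was near wild type, Dmbt1, a secreted scavenger receptor protein, where 41% of all tested genes were.

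Ctrc, the gene of chymotrypsin C, which activates and degrades trypsinogens, was the 1 enzyme gene with an unadjusted p under 0.05 (chr4:141814962-141846359). In WT it ran from 1827 to 25259 CPM with a median of 17175, the low value being mouse 69 and the next lowest 13532. It was at 2060, 2215, 849.8, 746 and 2386 CPM in the KPC ASC KO mice. Here all 5 KPC ASC KO mice were below 5 of the 6 WT mice, including the 3 mice whose other enzymes were at WT level. The log2 difference was -3.27 (SE 0.58, edgeR adjusted p = 0.108), and in KPC against WT it was -4.96. Ctrc passed the threshold with DESeq2, with library totals in place of TMM, in the fit of the 11 mice, at a minimum count of 30 and without WT mouse 69. Without mice 377 and 384 the difference was still -2.84 (adjusted p = 0.903).

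Outside the enzymes, Tdh, Gal and Hamp2 were also lowest in mice 377 and 384. Tdh encodes threonine dehydrogenase, a mitochondrial enzyme of threonine breakdown. Its WT range was 76.9 to 199 CPM with a median of 109, and it was 62.7, 78.1, 9.28, 7.42 and 54.9 CPM in mice 318, 335, 377, 384 and 388. Only mouse 335 reached the WT range (log2 difference -1.65, SE 0.56, adjusted p = 0.334; KPC against WT, -6.40). Gal, the gene of the neuropeptide galanin, ran from 895 to 1893 CPM in WT with a median of 1276. It was 718, 1094, 143, 128 and 524 CPM in the KPC ASC KO mice, again with only mouse 335 inside the WT range (log2 difference -1.40, SE 0.62). Hamp2, a hepcidin-like gene, was below all WT mice in all 5, at 675, 625.1, 126, 139 and 629 CPM against 823 to 1030. Tdh, Gal and Hamp2 were named because they were among the 4 genes furthest below the WT range in mouse 377 or mouse 384.

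**Figure D3:**
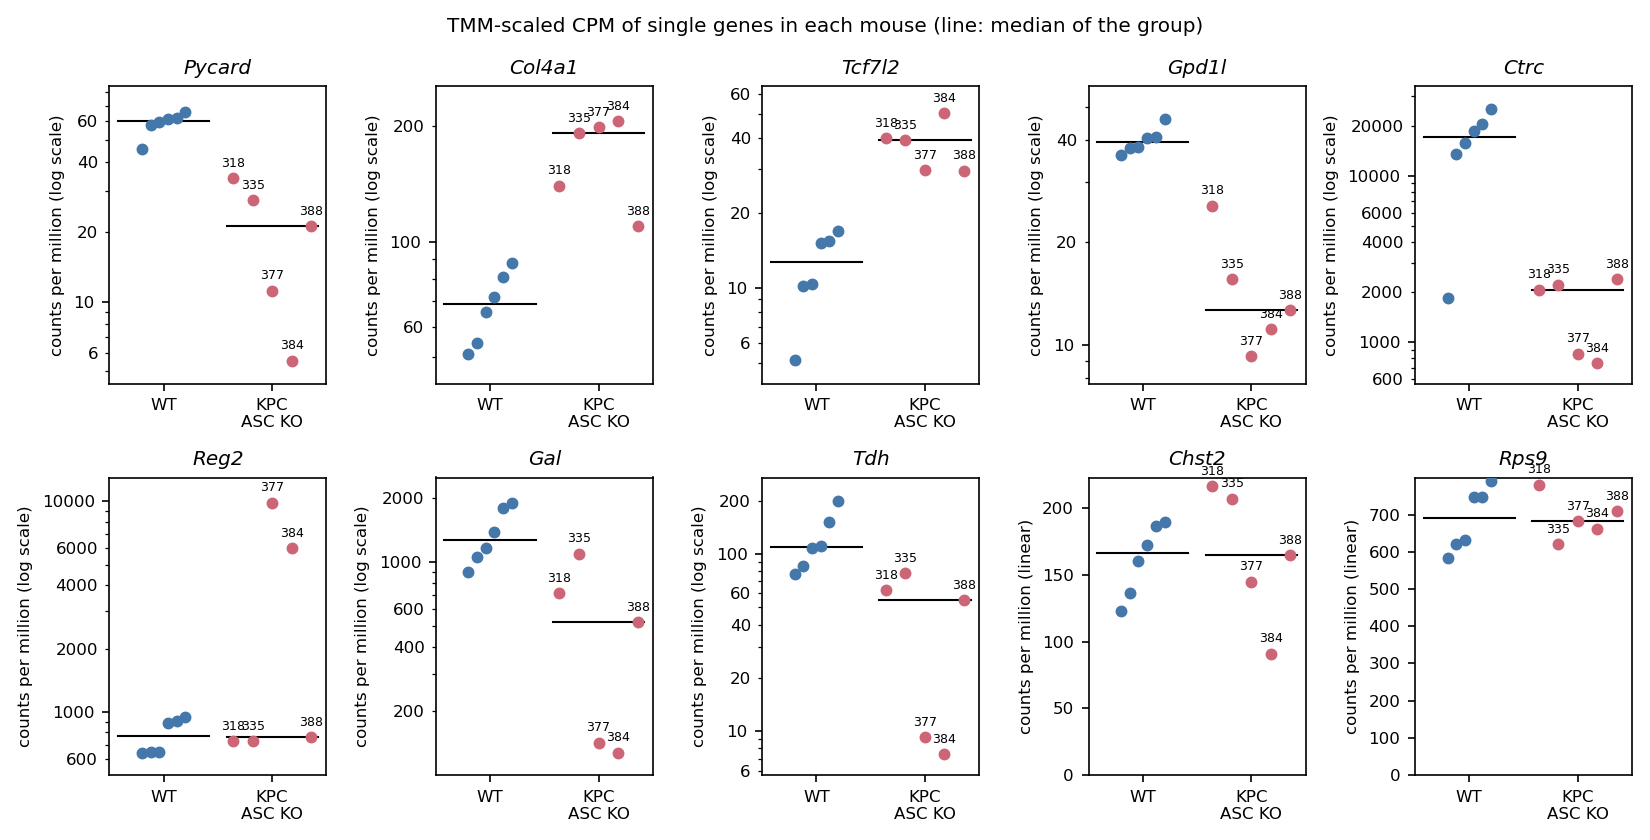
TMM-scaled CPM of 10 genes in each WT and KPC ASC KO mouse, on log axes except for Chst2 and Rps9, which start at 0; points are mice and lines are group medians. Pycard and Gpd1l are lower and Col4a1 and Tcf7l2 higher in all 5 KPC ASC KO mice, Reg2, Gal and Tdh depart furthest in mice 377 and 384, and Chst2 and Rps9 overlap with WT.

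The Reg family had the highest median difference of the 39 lists, and its list median exceeded every WT mouse only in mice 377 and 384. The 250 bases upstream of the annotated starts of Reg2, Reg3a and Reg3b are shown because these genes lie close together on chromosome 6 and were high in the same libraries. The sequences are RefSeq's (GRCm38.p6), all on the plus strand, 5′ to 3′, and capitals mark the hexamer CACCTG, an E-box of the kind that the acinar factor PTF1 can bind.
Reg3b, chr6:78370635-78370884: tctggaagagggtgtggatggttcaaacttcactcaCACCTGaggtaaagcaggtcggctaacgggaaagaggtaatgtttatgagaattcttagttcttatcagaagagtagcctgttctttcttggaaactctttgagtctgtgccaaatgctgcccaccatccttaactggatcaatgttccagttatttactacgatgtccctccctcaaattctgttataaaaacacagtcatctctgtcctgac
Reg3a, chr6:78380459-78380708: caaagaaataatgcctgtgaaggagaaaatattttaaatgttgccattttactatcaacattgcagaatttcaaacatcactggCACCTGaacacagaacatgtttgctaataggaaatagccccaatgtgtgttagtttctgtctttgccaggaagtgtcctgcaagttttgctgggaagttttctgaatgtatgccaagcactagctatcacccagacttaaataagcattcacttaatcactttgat
Reg2, chr6:78404905-78405154: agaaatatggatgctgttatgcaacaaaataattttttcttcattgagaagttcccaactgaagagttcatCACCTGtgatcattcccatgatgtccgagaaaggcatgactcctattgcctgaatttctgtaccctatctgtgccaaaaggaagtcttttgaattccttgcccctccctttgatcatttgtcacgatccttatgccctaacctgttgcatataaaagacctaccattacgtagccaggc
Each of the 3 windows holds CACCTG once, read on both strands, and it starts 214, 166 and 179 bases before the start of Reg3b, Reg3a and Reg2. Of 27025 windows of the same length, 17.1% hold it. The letters TTCNNNGAA, the kind of site that STAT factors bind, occur in the Reg3b window alone of these 3, and in 7.18% of all windows. These are matches of letters and not measured binding, in 3 genes chosen after their values were seen. Windows of other Reg genes were not examined, though 5 of the 6 tested exceeded every WT mouse in mouse 377 and in mouse 384.

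Reg2 ran from 640 to 944 CPM in WT, with a median of 768. It was at 729.5, 727, 9841, 5989 and 760 CPM in the KPC ASC KO mice. Mice 318, 335 and 388 were therefore inside the WT range, and mice 377 and 384 were far above its top. Reg3a was at 125, 160, 1727, 1330 and 106 CPM in the same order, against 103.5 to 187 in WT. Reg3b was at 752, 942, 5711, 4657 and 790 CPM, against 724 to 1107 in WT. The log2 differences were 2.21 (SE 0.84) for Reg2, 2.25 (SE 0.94) for Reg3a and 1.49 (SE 0.66) for Reg3b, with adjusted p of 0.408, 0.446 and 0.466. Without mice 377 and 384 they were -0.07, -0.16 and -0.14. These 2 mice were picked for their extreme values, so the fall describes the spread and is no test. Of the 6 tested Reg genes, 0 were near wild type, where 41% of all tested genes were. The median difference was 1.49, beside 1.10 in KPC against WT. The family's summed level, which the more abundant members dominate, depended on the scale. It was 27980, 17560, 33140, 23380 and 14140 CPM after TMM scaling, against 12620 to 25810 in WT, with mice 318 and 377 above WT. Relative to all counts it was 15150, 10590, 32420, 26130 and 8944, against 8369 to 15190, with mice 377 and 384 above WT.

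The extracellular matrix genes, which encode collagens, fibronectin and other fibrous proteins, lay above WT on the group level in 29 of 29 tested genes. Over all tested genes the median log2 difference was 0.00, so lying above 0 is by itself common. The median log2 difference was 0.95 (KPC against WT, 1.28), 12 genes had an unadjusted p under 0.05 where 9.99% of all tested genes did, and 0 had an adjusted p under 0.05. Their summed level was 1566 to 2152 CPM in WT, and 1980, 1797, 5783, 5655 and 1824 CPM in mice 318, 335, 377, 384 and 388. Mice 318, 335 and 388 were inside the WT range, and mice 377 and 384 were inside the KPC range of 2804 to 5885. Of the 29 genes, 22 in mouse 377 and 25 in mouse 384 exceeded every WT mouse, against 5, 2 and 2 in the other mice. Of all tested genes, 11.6%, 12.6%, 15.3%, 18.2% and 12.1% exceeded every WT mouse in mice 318, 335, 377, 384 and 388. Without mice 377 and 384 the list median was -0.003.

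Col1a1, a chain of type I collagen, was at 160, 145, 646, 697 and 144 CPM in mice 318, 335, 377, 384 and 388, and at 117 to 237 in WT (log2 difference 1.29, SE 0.42, adjusted p = 0.326). Fn1, fibronectin, was at 148, 117, 527, 473 and 97.1 CPM, and at 100 to 138 in WT (log2 difference 1.31, SE 0.42). For both genes mice 377 and 384 were above all other mice, and without these 2 the differences were 0.01 and 0.12. Dcn, decorin, was the 1 matrix gene near wild type, with a log2 difference of 0.33 (95% interval -0.08 to 0.74).

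Col4a1, a type IV collagen of basement membrane, was above WT in all 5 mice. Col4a1 (chr8:11198423-11312826) had the smallest p of all tested genes. It ran from 50.9 to 87.7 CPM in WT with a median of 68.6, and was at 140, 191, 199, 206 and 110 CPM in mice 318, 335, 377, 384 and 388. All 5 values lay above all 6 WT values, as they did for 35 of 6920 genes (0.506%). The log2 difference was 1.33 (SE 0.24, edgeR adjusted p = 0.0642; KPC against WT, 1.22), and without mice 377 and 384 it was 1.12 (adjusted p = 0.903). With all 5 mice above WT, some difference had to remain. It passed the threshold with DESeq2, in the fit of the 11 mice, with genes above 0 in 2 libraries, at a minimum count of 30 and without mouse 388. Col4a2, whose annotated start overlaps that of Col4a1 (chr8:11312805-11449287), was at 48.4, 58.6, 98.3, 128 and 38.0 CPM, against 20.4 to 51.6 in WT, so that mice 377 and 384 were highest and mice 318 and 388 fell within the WT range. Of the 11 tested basement membrane genes, 8 lay above 0, with a median of 0.22 beside 0.00 over all tested genes. An unadjusted p under 0.05 was found for 2, Col4a1 and Col4a2, where 9.99% of all tested genes had one.

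Macrophage genes showed the same split. Their summed level was 1184 to 1425 CPM in WT, and 1368, 1129, 3679, 3622 and 1051 CPM in mice 318, 335, 377, 384 and 388, with mice 335 and 388 below the WT range. Mice 377 and 384 exceeded every WT mouse for 12 and 11 of the 13 tested genes, against 2, 1 and 0 in the other 3 mice, beside the shares of all tested genes given for the matrix. The list median was 0.90 (KPC against WT, 1.55), and 8 of 13 genes had an unadjusted p under 0.05, where 9.99% of all tested genes did. Without mice 377 and 384 the median was -0.05. C1qc, a chain of complement component C1q made by tissue macrophages, was at 85.5, 58.6, 208, 273 and 59.1 CPM, against 37.4 to 72.2 in WT (log2 difference 1.33, SE 0.35, adjusted p = 0.191). Mouse 318 was thus also above the WT range for C1qc.

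The antigen-presenting class II genes, with 8 tested, had a median of 0.72 (KPC against WT, 1.55). Their sum was 1342, 1192, 3078, 2712 and 1026 CPM in mice 318, 335, 377, 384 and 388, against 1022 to 1176 in WT. Mice 318 and 335 were just above the WT range on this scale, and inside it when summed relative to all counts (727 and 719, against 537 to 836). H2-Aa, a class II alpha chain, was at 422, 363, 889, 764 and 350 CPM, against 250 to 405 in WT (log2 difference 0.72, SE 0.27, adjusted p = 0.379). C3, the central complement component, was at 268, 207, 468, 453 and 127 CPM, against 133 to 177 in WT (log2 difference 0.95, SE 0.24, adjusted p = 0.179). For H2-Aa and C3 mouse 318 was also above the WT range, and for C3 so was mouse 335, while mouse 388 was below it for C3.

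Lymphocyte genes lay nearer to WT, with wide intervals. B cell genes summed to 165, 184, 180.0, 319 and 203 CPM in mice 318, 335, 377, 384 and 388, with a WT range of 146 to 212 and a KPC range of 68.4 to 1317. The median log2 difference of the 7 tested B cell genes was 0.05 (KPC against WT, 2.05), but the median standard error was 1.05, so 0 of 7 could be placed near wild type. T cell genes summed to 91.2, 117, 70.5, 165 and 148 CPM, against 84.8 to 129.0 in WT. Mouse 384 was the highest of the 5 in both lists, mouse 388 also exceeded the WT range for T cells, and mouse 377 was below it. Counts were small: Cd79a, a chain of the B cell receptor complex, had 5, 4, 5, 14 and 5 raw counts, and Cd3e, of the T cell receptor complex, had 0, 0, 1, 2 and 1. Plasma cell genes, with 13 tested, had a median of 0.15 (KPC against WT, 1.59).

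The genes nearest ASC in function could be described in part. Of 7 tested inflammasome and pyroptosis genes, 1 had an unadjusted p under 0.05 (Pycard), 3 were near wild type and the median difference was 0.26, with both counts near the shares of all tested genes (9.99% and 41%). Nek7, a kinase that NLRP3 needs, had a log2 difference of 0.31 (95% interval -0.33 to 0.96), and Txnip, a thioredoxin-binding protein, 0.26 (-0.28 to 0.81). Ninj1, which ruptures the membrane of dying cells, was at -0.19 (-0.71 to 0.32). Gsdmd, the pore-forming gasdermin D, was at 0.56 (-0.31 to 1.45) and could not be placed. Of 5 tested interleukin 1 family genes, 5 lay above 0, 3 had an unadjusted p under 0.05 and 0 an adjusted one (edgeR). The median was 1.06, or 0.31 without mice 377 and 384. Over all tested genes the median was 0.00, and 9.99% had an unadjusted p under 0.05. Il33, the alarmin interleukin 33, was at 14.2, 11.7, 42.7, 51.9 and 25.3 CPM, against 8.48 to 17.2 in WT (log2 difference 1.06, SE 0.48, adjusted p = 0.446). Il1r1, the interleukin 1 receptor, was at 2.85, 7.81, 20.4, 16.7 and 8.44 CPM, against 0 to 15.5 in WT, with at most 11 counts in any of the 5 mice. Myd88, an adaptor of that receptor, differed by 1.28 (SE 0.52). Mice 377 and 384 exceeded every WT mouse for 3 of the 5 genes, against 0, 0 and 2 in mice 318, 335 and 388. Irak1, a kinase of the same pathway, was the 1 member near wild type, at 0.08 (-0.36 to 0.52), and it was higher than in KPC by 0.95 (edgeR adjusted p = 0.0068). Among the 78 tested genes within 5 Mb of Pycard, 5 were lower and 1 was higher at an unadjusted p under 0.05, which is 7.69% beside 9.99% of all tested genes.

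Housekeeping classes held the highest shares of genes near wild type. Of 42 tested cytosolic ribosomal protein genes, 41 were near wild type, where 41% of all tested genes were, and the median difference was 0.06. Rps9, a protein of the small ribosomal subunit, was at 781, 621, 683, 662 and 709 CPM in mice 318, 335, 377, 384 and 388, against 583 to 790 in WT. All 5 were inside the WT range, and the log2 difference was 0.01 (95% interval -0.28 to 0.30). Rplp1, of the ribosomal stalk, was near wild type at -0.35 (-0.84 to 0.14), while KPC against WT was at -1.73 (edgeR adjusted p = 2.8e-05). These genes are highly expressed and their intervals narrow (median standard error 0.18), which bears on how often a gene can be placed.

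Genes of the respiratory chain and of the endoplasmic reticulum were mostly near wild type, with list medians below 0. Of 34 tested nuclear respiratory chain genes, 31 were near wild type. Over all tested genes it was 41%, the share to set beside each such count here. Yet 31 of the 34 lay below 0, and the median was -0.31, beside 0.00 over all tested genes (KPC against WT, -0.72). An unadjusted p under 0.05 was found for 6, beside 9.99% of all tested genes. In mice 377 and 384 the median was -0.47 and -0.47, and in the other 3 mice it was -0.14, -0.07 and -0.10, inside the WT range. Ndufb8, a subunit of complex I, was at 171, 109, 79.8, 87.2 and 148 CPM, against 153 to 340 in WT (log2 difference -0.83, SE 0.23, adjusted p = 0.229). Of 24 genes of the endoplasmic reticulum translocon and glycosylation, 20 were near wild type, with a median of -0.25. Of 21 chaperone and unfolded protein response genes 14 were, with a median of -0.18. Yet in mice 318, 335, 377, 384 and 388, 6, 2, 10, 15 and 5 of the 24 were below every WT mouse. For the 21 it was 2, 1, 8, 11 and 4, beside 9.61%, 12.3%, 14%, 15.5% and 13.1% of all tested genes. Summed, the 24 were at 3545, 4059, 2798, 2558 and 3669 CPM, against 3634 to 4535 in WT. Relative to all counts the sums were 1920, 2449, 2737, 2858 and 2321, against 2308 to 2831. Xbp1, the transcription factor of the unfolded protein response, was near wild type at 0.15 (95% interval -0.23 to 0.54), beside -0.76 in KPC against WT. The mitochondrially encoded genes, 11 of 13 near wild type with a median of 0.15, summed to 12150, 11740, 6808, 6701 and 11720 CPM, against 7760 to 10550 in WT, so that mice 318, 335 and 388 were above the WT range and mice 377 and 384 below it. Relative to all counts 4 of these sums were inside the WT range and mouse 384 was just above it.

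**Figure D4:**
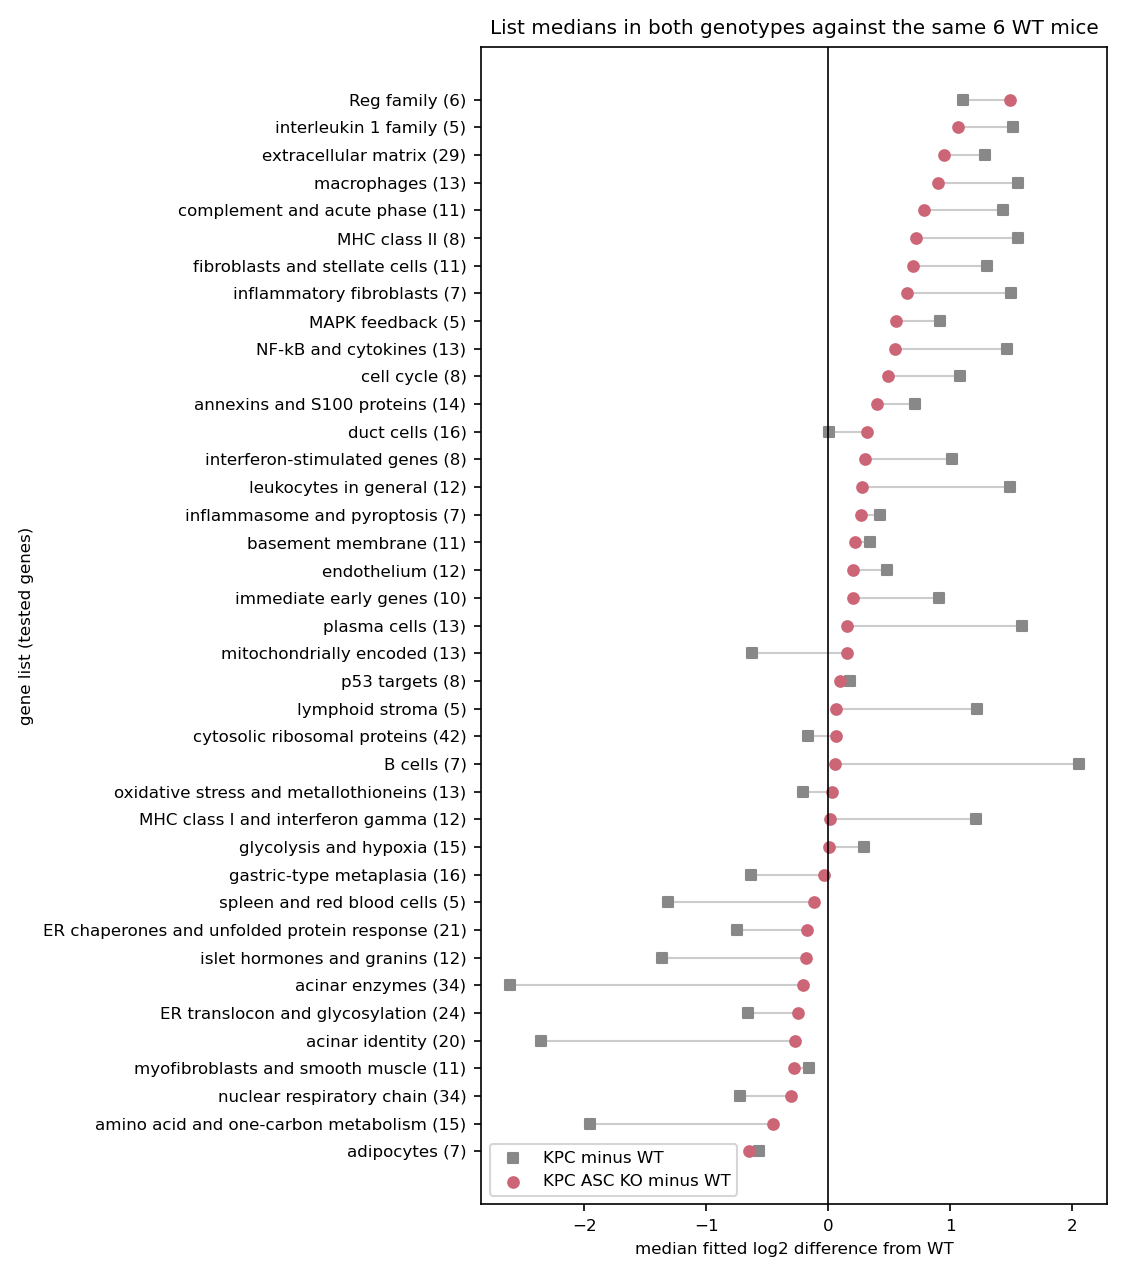
Median fitted log2 difference from WT of 39 lists, for KPC ASC KO (circles) and KPC (squares) against the same 6 WT mice; the number of tested genes follows each name. The 2 sets share the WT mice; acinar enzymes stand at -0.20 and -2.61, B cells at 0.05 and 2.05, matrix at 0.95 and 1.28, and the Reg family at 1.49 and 1.10.

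Among genes that changed in KPC and also differed between KPC ASC KO and KPC, the 8 near-wild-type genes with the largest KPC difference were Lypd8, Plk2, Ggh, Qsox2, Chst2, Cldn18, Rplp1 and Cpn1. All 8 fell in KPC, with log2 differences of -2.14 for Lypd8 to -1.72 for Cpn1. Chst2, a sulfotransferase, was at 217, 207, 145, 90.9 and 165 CPM in mice 318, 335, 377, 384 and 388, against 123 to 190 in WT. Mouse 384 was below and mice 318 and 335 above the WT range, and the group difference was 0.02 (95% interval -0.81 to 0.85). Cpn1, a plasma carboxypeptidase, was at 71.2, 70.3, 77.9, 61.2 and 67.6 CPM, against 48.3 to 92.9 in WT. Here all 5 mice were inside the WT range (log2 difference 0.01, 95% interval -0.92 to 0.94). Cldn18, a tight junction protein, was at 76.9, 121, 44.5, 44.5 and 131 CPM, all within the WT range of 25.6 to 136.

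For some genes all 5 mice lay on one side of WT, and 0 of them passed the adjusted threshold. Lemd2, Gpd1l, Rpl29 and Gm5561, from the 20 smallest p-values, and Cela1 above were chosen after their values were seen. All 5 KPC ASC KO mice lay above all 6 WT mice for 35 genes (0.506%) and below for 33 (0.477%). Tcf7l2, a transcription factor of Wnt signalling, was at 39.9, 39.1, 29.7, 50.1 and 29.6 CPM against 5.16 to 17.0 in WT (log2 difference 1.64, SE 0.42, edgeR adjusted p = 0.14). Lemd2, a protein of the inner nuclear membrane, was at 31.3, 62.5, 31.5, 44.5 and 63.3 CPM against 10.3 to 20.5 (log2 difference 1.34, SE 0.35, adjusted p = 0.14). For Tcf7l2 and Lemd2 the groups did not overlap, and the difference without mice 377 and 384 was 1.58 and 1.53. With all 5 mice above WT, a difference had to remain in the other 3, so this is no test. The WT levels of both genes rest on few counts.

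Gpd1l, a glycerol-3-phosphate dehydrogenase-like gene, was at 25.6, 15.6, 9.28, 11.1 and 12.7 CPM against 36.1 to 46.1 in WT (log2 difference -1.46, SE 0.34, adjusted p = 0.132). Rpl29, of the large ribosomal subunit, was at 45.6, 35.2, 31.5, 35.2 and 38.0 CPM against 62.1 to 105.5 (log2 difference -1.18, SE 0.25, adjusted p = 0.108). Both genes were lower in all 5 mice than in any WT mouse. Without mice 377 and 384 the differences were -1.09 and -1.06, which for the same reason is no test. Gm5561, annotated as a processed pseudogene, had a log2 difference of -1.39 (SE 0.26, adjusted p = 0.0744), also below WT in all 5. Rpl29 passed the threshold with DESeq2 and at a minimum count of 30, and Gm5561 with both of these, in the fit of the 11 mice, with genes above 0 in 2 libraries and without mouse 318. Ribosomal protein genes have many near-identical copies whose reads the counting could divide, so the value of Rpl29 is uncertain. A processed pseudogene is itself a copy of another gene, so the value of Gm5561 is uncertain as well.

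Prom1, encoding the apical membrane protein prominin 1 of ducts, was at 82.6, 70.3, 92.8, 57.5 and 63.3 CPM against 17.2 to 33.9 in WT. All 5 mice were above all WT mice, and the log2 difference was 1.47 (SE 0.64, adjusted p = 0.446). Prom1 passed the threshold in the fit of the 11 mice alone. Ccr2, a chemokine receptor of monocytes, was at 11.4, 11.7, 53.8, 35.2 and 8.44 CPM against 0 to 6.90 in WT (log2 difference 2.61, SE 0.80, adjusted p = 0.179). For Ccr2 the 5 mice were all above WT, but mice 377 and 384 were well above the other 3, whose levels rest on few counts. S100a11, a calcium-binding protein, was at 157, 129, 276, 254 and 127 CPM against 71.5 to 131 (log2 difference 1.01, SE 0.25, adjusted p = 0.179), with mice 335 and 388 just inside the WT range. Of 14 tested annexin and S100 genes, 6 had an unadjusted p under 0.05 and 7 were near wild type, beside 9.99% and 41% of all tested genes, with a median of 0.40.

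**Figure D5:**
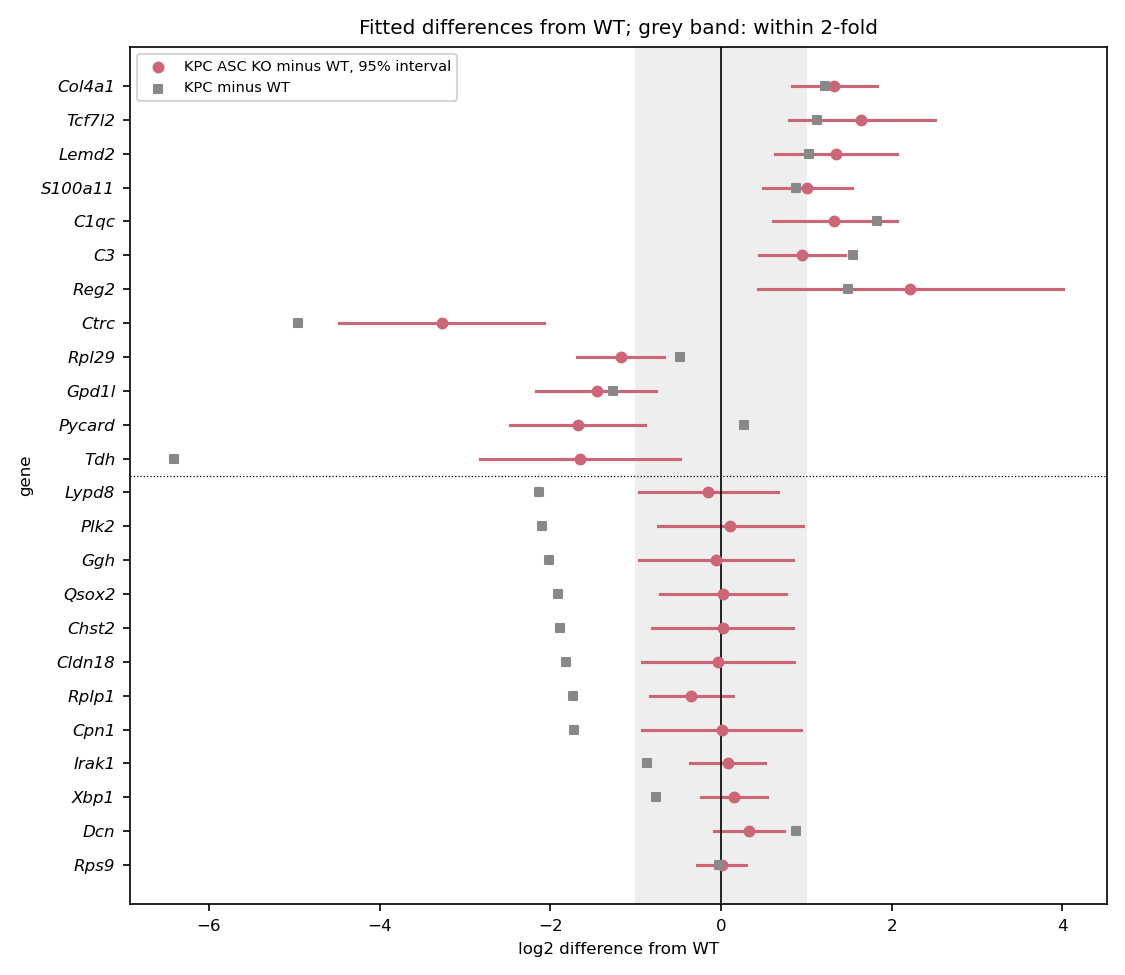
Fitted log2 difference from WT for 24 genes, with the 95% interval for KPC ASC KO (circles and lines) and the KPC value beside it (squares); the grey band marks 2-fold either way. Genes above the dotted line have intervals that reach outside the band, genes below it are near wild type; Pycard stands at -1.67 in KPC ASC KO and 0.26 in KPC.

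Trp53, the gene of the tumour suppressor p53, was measured at low counts. It was at 8.55, 15.6, 9.28, 33.4 and 8.44 CPM in mice 318, 335, 377, 384 and 388, against 3.45 to 20.2 in WT (log2 difference 0.68, SE 0.51, adjusted p = 0.662). Mouse 384 was above the WT range, and the other 4 mice lay inside it. Counts per gene do not show which allele was read.

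The number of genes detected also moved with mice 377 and 384, and its part in the results was not tested. It was 15664 and 15706 in these mice, 12804 to 13877 in the other 3, and 11955 to 13438 in WT. Red blood cell and spleen genes summed to 1866, 1496, 6346, 4164 and 3192 CPM, all inside the WT range of 1251 to 7863. Of 16 tested duct cell genes, 5 were near wild type, where 41% of all tested genes were, and the median was 0.32. Their summed level was 8976, 5399, 8504, 7150 and 5083 CPM, against 4440 to 8453 in WT. Mice 318 and 377 were above the WT range for this sum, whereas relative to all counts mice 318, 377 and 384 were above it and mice 335 and 388 below. Spp1, osteopontin, a transcript of ducts that macrophages also make, was at 291, 246, 711, 649 and 182 CPM, against 141 to 185 in WT. Islet hormone and granin genes summed to 3548, 5118, 5123, 4025 and 8474 CPM, inside the WT range of 2028 to 12500 in all 5 mice.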

How the data were processed

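Polyadenylated RNA of 18 pancreas samples, 1 mouse each, had been primed with an index of 8 bp and a molecular identifier of 10 bp from 20 ng of RNA, per the labels' protocols. The table deposited by the authors lists 25651 genes in whole-number counts, called UMI counts in its own name. The builds named in the submitters' processing notes were GRCm38 and mm10, and the tools R 4.1.2, edgeR 3.36.0 and limma 3.50.0. The aligner, like the rule for collapsing identifiers, is not given in the sources used here.

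The counts as deposited were fitted here with edgeR 4.0.16 in R 4.3.3 (quasi-likelihood, robust, TMM scaling). Genes were kept by filterByExpr at a minimum count of 10, run on all 18 mice, which left 6920. All 18 mice in 3 groups entered one fit without covariates. P-values were adjusted by Benjamini-Hochberg over 6920 genes. CPM and list sums are TMM-scaled unless said to be relative to all counts. The TMM scale for list sums was chosen after sums relative to all counts had been seen, because it is the scale of the fit, and it changed which mice lay outside the WT range for the Reg, duct, red blood cell and class II sums, among others. The 95% interval is a Wald interval from the same fit. Groups come from the titles, and mouse numbers are not shared between groups. The labels name mice, so p-values measure the spread between mice.

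The members, the 50 gene lists (805 genes, 538 tested) and the tests were chosen with earlier results of these data known. No list was tested. Named genes are Pycard and Trp53, up to 4 genes with the smallest p and up to 2 near-wild-type genes per list, those furthest outside the WT range in each mouse, the 12 of widest spread among the 5 mice, and 8 near-wild-type genes called elsewhere. Others are said to be chosen after their values were seen. One gene that the rule names is not reported here.

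Alternatives were DESeq2 1.42.0, limma-voom 3.58.1, other scalings and filters, a fit of the 11 mice alone, a term for Y-linked counts, and each mouse left out. Leaving out mice 377 and 384 together was chosen after seeing the data. On simulated counts for 6920 genes, KPC ASC KO against WT recovered 20 of 100 genes changed 2-fold and 76 of 100 changed 4-fold, with 7 false calls. The 95% interval held the true value for 95.5% of genes, and 1 of the 100 changed 2-fold was called near wild type. All groups were drawn from the WT mean, with the changes added in KPC ASC KO. The simulated mice of a group shared one mean, so no division like that of mice 377 and 384 was in it. Of its unchanged genes 28.5% were near wild type, where 41% of genes were in the data, so its rates may not carry over.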

Additional observations from a re-analysis of the deposited data

Results flagged for a closer look

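The values of 60 printed items were examined in each of the 2 groups for a mouse standing apart from the rest of its group, which chance gives in about 1 in 20. It was found in 10 of 120 groups of values (8.3%), 7 in WT and 3 in KPC ASC KO. WT mouse 1238 was high for the summed acinar identity genes (64870 CPM, next 46070), the summed duct cell genes (8453 CPM, next 5701) and Cpa1, a carboxypeptidase gene (65752 CPM, next 44074). Its TMM scaling factor, 0.523, was the lowest of the WT libraries, which raises its scaled values. Relative to all counts its 2 sums were 33010 (next 30640) and 4302 (next 3958). WT mouse 1202 was low for the summed respiratory chain genes (6679 CPM, next 7756). WT mouse 1213 was low for Lemd2 (10.32 CPM, next 16.96) and high for Col1a1 (237.4 CPM, next 143.6), and WT mouse 69 was high for Ndufb8 (340.3 CPM, next 217.1). In KPC ASC KO, mouse 384 was high for the summed B cell genes (319 CPM, next 202.7) and for Trp53 (33.38 CPM, next 15.63), and mouse 335 was high for Sst, the somatostatin gene (152.4 CPM, next 114).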

How the results depend on the processing

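No paired analysis was possible because the groups share no mouse numbers. The count of changed genes was 0 as reported and 0 with DESeq2 size factors in edgeR, without acinar enzyme genes, with limma-voom and with a term for Y-linked counts. It was 1 (0 higher, 1 lower) with library totals in place of TMM, 8 with DESeq2 (3 higher, 5 lower), 8 in the fit of 11 mice (4 and 4, among 3234 genes), 2 with genes above 0 in 2 libraries (1 and 1) and 5 at a minimum count of 30 (1 and 4). Leaving out single mice gave 0 to 1, with 0 to 1 higher and 0 to 1 lower: Ctrc without WT mouse 69, Gm5561 without mouse 318 and Col4a1 without mouse 388. Pycard passed with DESeq2 (-1.68, adjusted p = 0.0492) and in the fit of 11 mice (-1.63, adjusted p = 0.0405).

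The 691 genes at an unadjusted p under 0.05 became 379 in the fit of 11 mice, 1610 with genes above 0 in 2 libraries, 300 at a minimum count of 30 and 398 without mice 377 and 384, of which 192 were among the 691. The 2840 genes near wild type became 1738 with library totals, 1606 at a minimum count of 30 and 517 at a 1.5-fold margin. Of 57 named near-wild-type genes, 21 were no longer near with library totals and 18 without mice 377 and 384, the latter with fewer mice in the fit. Library totals moved the median of all genes by 0.24 (log2) and the share of higher genes among those at an unadjusted p under 0.05 from 56.4% to 89.3%, and that share was 42% with limma-voom and 48.2% without mice 377 and 384.

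The 652 genes called against KPC became 5193 with library totals, 157 to 734 on leaving out single KPC ASC KO mice (191, 157 and 205 without mice 318, 335 and 388) and 1098 without mice 377 and 384. Without mice 377 and 384 the sign changed for Reg2 (-0.072), Reg3a (-0.16), Reg3b (-0.14), Ctss (-0.035), H2-Eb1 (-0.022), Serping1 (-0.063), Cfp (-0.058) and Eln (-0.24). The cause was not tested, except that fewer genes or mice enter the fits so named. Genes at a few counts per library, lymphocyte genes and Pycard among them, are limited by depth.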

Other observations

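Genes whose level varied most among the 5 KPC ASC KO mice were not all among the lists above. Ncf1, a subunit of the phagocyte oxidase, had the largest SD of log2 CPM, 2.24 in KPC ASC KO and 0.50 in WT, followed by Cnn1, a smooth muscle calponin (2.07 and 1.16), and Muc5ac, a gastric mucin (2.02 and 1.91). F13a1, the coagulation factor XIII subunit of macrophages, had SDs of 1.92 and 0.43. Pgk1, the glycolytic phosphoglycerate kinase 1, was at 28.5, 141, 11.1, 31.5 and 80.2 CPM in mice 318, 335, 377, 384 and 388, against 0 to 15.5 in WT. It was highest in mice 335 and 388, which were near WT in enzyme share, and mouse 377 was inside the WT range (log2 difference 2.74, SE 0.83, edgeR adjusted p = 0.229). Pgk1 has processed copies elsewhere in the genome, so its counts are uncertain.

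The summed level of 23 cell cycle genes was 475 to 656.7 CPM in WT and 672.5, 703, 750, 762 and 764 CPM in mice 318, 335, 377, 384 and 388, above every WT mouse in all 5, and relative to all counts in 3 of the 5. Of the 8 tested genes, Ccnd1 (cyclin D1, log2 difference 0.65) and Tuba1b (an alpha tubulin, 0.71) had an unadjusted p under 0.05, where 9.99% of all tested genes did. With edgeR 0 had an adjusted p under 0.05. The summed level of 7 liver genes was 190.9, 125, 102, 122 and 181.5 CPM, below the WT range of 195 to 302.5 in all 5 mice on both scales, with 2 of the genes tested and 0 at an unadjusted p under 0.05. These sums were chosen after their values were seen.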
